A study of Mus musculus with 12 samples.

Results

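Cardiomyocyte transcripts, the RNAs of the contractile and calcium-handling proteins of heart muscle cells, were followed in RNA of macrophages (Mφ) sorted from mouse hearts. The set held 10 genes, Myh6, Actc1, Tnnt2, Tnni3, Tnnc1, Myl2, Myl3, Mb, Ryr2 and Ttn, taken from the count tables by gene symbol. All 10 were found among 24445 gene symbols, all 10 passed the filter on low counts, and none was chosen by its level or its change in the tables used here, although the set was proposed with earlier results of these data in view. The animals were adult male C57BL6/J mice carrying an osmotic pump in every group. Ct mice received saline, ECH mice (early concentric hypertrophy) received isoproterenol at 30 mg/kg/day for 14 days, and HF mice (heart failure) received isoproterenol at 30 mg/kg/day for 28 days. For how long each Ct mouse was infused is not given in the sources used. Live CD14+/CD64+ Mφ were sorted after CD45 bead enrichment and gating on CD11b+ cells, with doublets excluded, and 12 libraries were made, 4 per group and 1 per mouse.

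Heart muscle contracts when myosin heads, fed by ATP, pull on actin filaments inside repeating units called sarcomeres. Calcium released from the sarcoplasmic reticulum through the ryanodine receptor binds the troponin complex on the thin filament and opens the sites where myosin attaches. Macrophages do not build sarcomeres. Resident cardiac Mφ lie against cardiomyocytes and are known to take up material that cardiomyocytes shed, and RNA released from broken cells during digestion of a heart can also enter a sorted sample. In bulk RNA these routes and transcription by the sorted cells themselves cannot be told apart, and neither can fewer cells carrying a transcript and less of it per cell.

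The sorted cells carried their defining markers. Cd14 was at 1713 to 2993 counts per 1000000 (CPM, scaled with TMM factors) and Fcgr1, which encodes CD64, at 71.5 to 182 CPM over the 12 libraries. All 15 macrophage markers examined were detected in every library, and their summed level was 35163 to 49057 CPM. Libraries held 88466559 to 111180291 counts and detected 13600 to 15940 genes, fewest in HF 1 and second fewest in Ct 2. The numbers given to the libraries in the labels run from 1 to 6 and then again from 1 to 6, which divides them into a set of Ct 1 to 4 with ECH 1 and 2 and a set of ECH 3 and 4 with HF 1 to 4. A second code in the sample titles is shared by Ct 1 and 2, by Ct 3 and 4, by ECH 3 and 4 and by HF 1 and 2, while the other 4 libraries each have their own. What the numbers and codes stand for was not stated. No code occurs in more than 1 group. Since no Ct library shares a set with an HF library, set and treatment cannot be told apart for HF against Ct without ECH as a bridge.

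Promoter windows are shown for 3 of the members, Myl3, which had the lowest log2 fold change in HF, Actc1, the member with the highest mean CPM, and Myh6, which had the smallest change in HF. The sequences are from RefSeq on GRCm38.p6, read 5′ to 3′ on the strand of the gene, from 250 bases before to 50 bases after the annotated start. Capitals mark matches to a CArG box, the MCAT element CATTCC or the TATA box TATAAA.
Myl3, chr9:110763428-110763727, plus strand: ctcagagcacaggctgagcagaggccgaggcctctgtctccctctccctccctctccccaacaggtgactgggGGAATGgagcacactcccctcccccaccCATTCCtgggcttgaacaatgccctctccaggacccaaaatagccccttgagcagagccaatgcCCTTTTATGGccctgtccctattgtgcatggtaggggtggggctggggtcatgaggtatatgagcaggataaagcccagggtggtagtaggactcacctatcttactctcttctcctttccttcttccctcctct
Actc1, chr2:114052826-114053125, minus strand: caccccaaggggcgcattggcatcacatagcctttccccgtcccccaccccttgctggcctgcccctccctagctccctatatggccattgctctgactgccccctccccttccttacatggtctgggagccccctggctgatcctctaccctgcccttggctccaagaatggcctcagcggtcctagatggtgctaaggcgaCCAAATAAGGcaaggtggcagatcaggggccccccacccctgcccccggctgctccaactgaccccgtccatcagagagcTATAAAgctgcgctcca
Myh6, chr14:54966558-54966857, minus strand: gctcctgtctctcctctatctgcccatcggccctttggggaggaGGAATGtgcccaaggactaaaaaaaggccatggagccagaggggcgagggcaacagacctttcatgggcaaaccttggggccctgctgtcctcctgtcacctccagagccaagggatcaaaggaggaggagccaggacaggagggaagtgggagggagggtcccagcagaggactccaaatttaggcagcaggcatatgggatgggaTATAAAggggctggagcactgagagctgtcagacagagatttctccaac
Counted from the annotated start, the Myl3 window held a CArG box at position -85 and MCAT elements at -177 and -149. The Actc1 window held a CArG box at -47 and TATAAA downstream of the start, and the Myh6 window held an MCAT element at -206 and TATAAA next to the start. In these 3 windows no match to one motif overlapped a match to another.

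Both strands of the promoter windows of all 10 members were searched for 6 motifs of muscle promoters. A CArG box, the binding element of serum response factor, was found in 2 of 10 members and in 1.63% of all 32851 promoter windows of this length. MCAT, the element bound by TEAD factors, was found in 5 of 10 members (Myh6, Myl3, Tnnc1, Tnnt2 and Ttn) against 14.7% of windows. The MEF2 site was found in Ttn alone among the members against 0.557% of windows, the GATA motif AGATAA in Myl2 and Tnnt2 against 11.2%, and TATAAA in Actc1, Myh6 and Myl2 against 13.6%. The NKX2-5 motif TNAAGTG was found in 0 of 10 members and in 11.5% of windows. Some genes have several windows, so a share of members and a share of windows are not counted in the same way, and a match says only that the letters occur there. The windows of Myl2, at chr5:122092474-122092773 and chr5:122092939-122093238, lie upstream of chr5:122100951, where the gene as given below begins. Its TATAAA match was on the opposite strand, at -216.

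Summed over the 10 genes, cardiomyocyte transcripts made up between 0.00753% and 0.0302% of the counts in a library. Their summed level was 198 ± 92.0 CPM in Ct Mφ, 147 ± 47.6 CPM in ECH Mφ and 110 ± 24.5 CPM in HF Mφ (mean ± SD, n = 4 each). In Ct libraries 1 to 4 the sum was 233, 311, 107 and 141 CPM. In ECH libraries 1 to 4 it was 114, 99.0, 180 and 195 CPM. In HF libraries 1 to 4 it was 123, 127, 117 and 73.8 CPM. The 3 groups overlapped, with a falling order of means, and Ct varied the most. The spread in Ct followed the title code, since 9 of 10 members (all but Ryr2) were higher in both Ct 1 and Ct 2 than in both Ct 3 and Ct 4, against 16.7% of tested genes. In HF, 3 of 10 were higher in both HF 1 and HF 2 than in both HF 3 and HF 4, also against 16.7%. Ct 2 was the highest of the 12 libraries for 8 of the 10 genes, the exceptions being Myh6 (highest in ECH 4) and Ttn (highest in HF 1). HF 4 was the lowest for 6 of the 10.

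**Figure D1:**
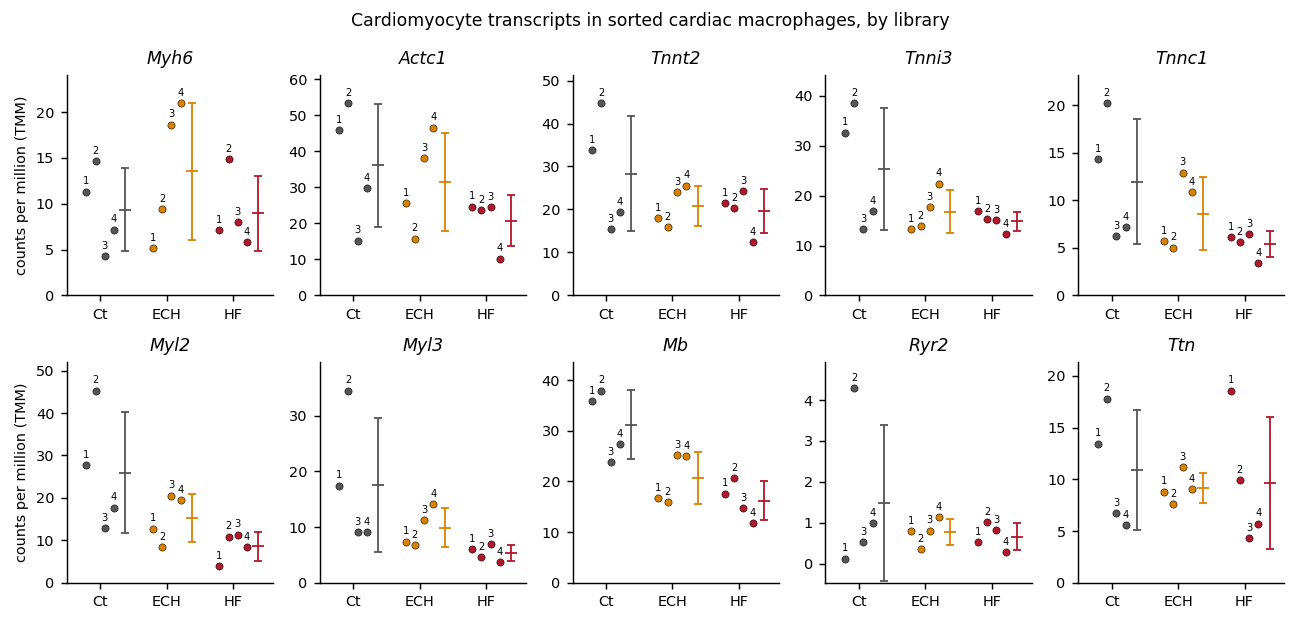
CPM (TMM-scaled, vertical axes from 0 except for Ryr2) of the 10 cardiomyocyte transcripts in the 12 libraries, 4 per group (Ct grey, ECH orange, HF red), with the replicate number above each point and the mean ± SD beside each group. Ct 2 is the highest point in 8 panels, and the HF points of Myl2, Myl3 and Mb lie below all Ct points; the Ryr2 error bar of Ct extends below 0.

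The light chains of myosin had the lowest log2 fold changes of HF against Ct. Myl3 encodes the ventricular essential light chain, which stiffens the lever arm of the myosin head, and it lies at chr9:110741861-110769798 (GRCm38, plus strand). Its level was 17.4, 34.5, 9.11 and 9.13 CPM in Ct libraries 1 to 4, 7.38, 6.79, 11.2 and 14.1 CPM in their ECH counterparts and 6.09, 4.57, 6.93 and 3.65 CPM in those of HF. All 4 HF libraries lay below all 4 Ct libraries, while ECH overlapped both groups. The log2 fold change of HF against Ct was -1.72 with an SE of 0.43, and the adjusted p from edgeR's quasi-likelihood test was 0.106. ECH against Ct gave -0.83 (SE 0.42), with an adjusted p of 0.476, and -0.27 without Ct 2.

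Myl2, the regulatory light chain of the ventricle and the substrate of myosin light chain kinase, lies at chr5:122100951-122113472. It was at 27.8, 45.3, 12.9 and 17.7 CPM in Ct libraries 1 to 4, 12.7, 8.49, 20.5 and 19.4 CPM in their ECH counterparts and 3.87, 10.9, 11.3 and 8.32 CPM in those of HF. Again every HF library was lower than every Ct library, with a gap of less than 2 CPM between Ct 3 and HF 3. The log2 fold change of HF against Ct was -1.59 (SE 0.43), with an adjusted p of 0.127 by the quasi-likelihood test. Without Ct 2 it was -1.18 (SE 0.40), and that of Myl3 was -1.16 (SE 0.35).

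Mb encodes myoglobin, which stores oxygen in cardiac and slow skeletal muscle, and lies at chr15:77015487-77050670 on the minus strand. It was at 35.8, 37.9, 23.8 and 27.3 CPM in Ct libraries 1 to 4, 16.7, 16.0, 25.2 and 25.1 CPM in their ECH counterparts and 17.6, 20.7, 14.8 and 11.8 CPM in those of HF. Its Ct values were closer together than those of the light chains, with 31.2 ± 6.76 CPM (mean ± SD, n = 4), and all HF values lay below them. The log2 fold change was -0.94 (SE 0.24) for HF against Ct, with an adjusted p of 0.106 in the quasi-likelihood test, and -0.59 (SE 0.24) for ECH against Ct, with an adjusted p of 0.341. Gm49540, on the opposite strand, covers 29.1% of the annotated exon bases of Mb, and because the strand setting of the counting was not stated, reads of both cannot be told apart. The other members overlap genes of the opposite strand in at most 4.83% of their exon bases (Myl2).

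The 3 subunits of the troponin complex were measured separately. Tnnc1, the calcium-binding subunit of cardiac and slow muscle, lies at chr14:31208312-31211729 and was at 14.3, 20.2, 6.23 and 7.18 CPM in Ct libraries 1 to 4, 5.69, 5.03, 12.9 and 10.8 CPM in their ECH counterparts and 6.14, 5.60, 6.43 and 3.41 CPM in those of HF. The HF range overlapped Ct by a small margin, since HF 3 exceeded Ct 3. Its log2 fold change of HF against Ct was -1.15 (SE 0.43) with an adjusted p of 0.228 in the quasi-likelihood test. Tnni3, the cardiac inhibitory subunit at chr7:4518305-4524229, was at 32.6, 38.5, 13.2 and 16.8 CPM in Ct libraries 1 to 4, 13.3, 13.8, 17.7 and 22.4 CPM in their ECH counterparts and 16.8, 15.4, 15.1 and 12.3 CPM in those of HF. For Tnni3, HF 1 and Ct 4 were both at 16.8 CPM after rounding and HF 4 lay below every Ct library, and the log2 fold change of HF against Ct was -0.76 (SE 0.31), or -0.49 without Ct 2. Tnnt2, the subunit that anchors troponin to tropomyosin, encoded at chr1:135836354-135852260, was at 33.7, 44.7, 15.5 and 19.5 CPM in Ct libraries 1 to 4, 18.04, 15.8, 24.1 and 25.6 CPM in their ECH counterparts and 21.5, 20.4, 24.3 and 12.3 CPM in those of HF. For Tnnt2, 3 HF values exceeded Ct 3 and Ct 4, and its log2 fold change of HF against Ct was -0.53 (SE 0.32), or -0.22 without Ct 2.

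Myh6 and Actc1 encode the motor and the filament it moves along. Myh6, the alpha myosin heavy chain that predominates in the adult mouse ventricle, is encoded at chr14:54941921-54966927 and was at 11.3, 14.7, 4.30 and 7.18 CPM in Ct libraries 1 to 4, 5.21, 9.42, 18.6 and 20.96 CPM in their ECH counterparts and 7.14, 14.9, 8.001 and 5.82 CPM in those of HF. Myh6 was the only member with a positive log2 fold change in ECH against Ct, 0.53 (SE 0.48). That value was 0.83 without Ct 2 and 0.80 without ECH 1, and 0.30 without Ct 3, 0.34 without ECH 3 and 0.24 without ECH 4. Its change in HF against Ct was -0.063 (SE 0.47), with either sign when 1 library was left out. Of the 75-base windows along its longest transcript, 15.5% also occur in Myh7, the beta heavy chain, so part of its reads could be shared. Myh7 itself was at 0 to 0.683 CPM. Actc1, cardiac alpha actin at chr2:114047282-114053548, was at 45.9, 53.3, 15.2 and 29.9 CPM in Ct libraries 1 to 4, 25.7, 15.7, 38.1 and 46.5 CPM in their ECH counterparts and 24.6, 23.6, 24.6 and 10.2 CPM in those of HF. The groups overlapped for both genes, and the log2 fold change of Actc1 in HF against Ct was -0.80 (SE 0.41).

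The giant members were the lowest per length and the least regular. Ttn encodes titin, the elastic protein that runs from the Z-disc to the M-line of the sarcomere, at chr2:76703980-76982547, and it was at 13.4, 17.8, 6.70 and 5.57 CPM in Ct libraries 1 to 4, 8.81, 7.60, 11.2 and 9.03 CPM in their ECH counterparts and 18.6, 9.94, 4.33 and 5.71 CPM in those of HF. Its highest library was HF 1, and its log2 fold changes against Ct were -0.25 (SE 0.46) in ECH and -0.18 (SE 0.46) in HF, both above 0 without Ct 2 (0.095 and 0.17). Ryr2, the calcium release channel of the sarcoplasmic reticulum at chr13:11553102-12106945, was at 0.120, 4.29, 0.526 and 0.987 CPM in Ct libraries 1 to 4, 0.802, 0.359, 0.808 and 1.13 CPM in their ECH counterparts and 0.526, 1.02, 0.820 and 0.277 CPM in those of HF. Ct 1 and Ct 2 were the lowest and the highest of all 12 libraries for Ryr2, with 12 and 369 counts. The log2 fold change of Ryr2 in HF against Ct was -1.16 (SE 0.94) and became 0.28 without Ct 2.

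No member was called in any of the 3 comparisons by the main test, edgeR's quasi-likelihood test with an adjusted p under 0.05 and a change of at least 2-fold. In ECH against Ct, 0 of 10 members were called, against 0.356% of the 14608 genes tested, and 1 member, Mb, was lower at an unadjusted p under 0.05, against 5.89% of genes. In HF against Ct, 0 of 10 were called, against 0.377% of genes, and 5 (Mb, Myl2, Myl3, Tnnc1 and Tnni3, all lower) had an unadjusted p under 0.05, against 8.72% of genes that were lower at that level. That count was 3 without Ct 2 or without HF 4 and 7 without Ct 3, and in ECH against Ct the count of 1 became 0 without Ct 1, Ct 2, ECH 1 or ECH 2, 3 without Ct 4 or ECH 4 and 4 without Ct 3. In HF against ECH, 0 of 10 were called, as were 0% of genes, and 0 members had an unadjusted p under 0.05 (2 when Ct 2 or ECH 2 was left out), where 5.17% of genes were lower at that level. DESeq2 and edgeR's likelihood ratio test each called 2 members, Myl2 and Myl3, lower in HF than in Ct, against 2.3% and 1.87% of genes called by these tools. The adjusted p of DESeq2 was 0.00506 for Myl3, 0.00972 for Myl2 and 0.00968 for Mb, which missed the 2-fold limit. Both tools called 0 members in ECH against Ct, where DESeq2 called 1.7% and the likelihood ratio test 1.49% of genes, and 0 in HF against ECH, where they called 0.322% and 0.329%. Limma-voom called 0 members in every comparison.

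The direction was shared more widely than the calls. The log2 fold change lay below 0 for 9 of 10 members in ECH against Ct, 10 of 10 in HF against Ct and 9 of 10 in HF against ECH, where 48.9%, 51.2% and 52% of tested genes lay below 0. The median log2 fold change of the members was -0.53, -0.87 and -0.47 in these comparisons, against 0.010, -0.015 and -0.018 over all tested genes. Any pair of these comparisons shares a group, and all 10 members share the same 12 libraries, so the members are not independent of each other. Without Ct 2 the median was -0.12 in ECH against Ct, with 6 of 10 members below 0, and -0.52 in HF against Ct, with 7 of 10 below 0. In HF against ECH the median was -0.28 without ECH 4 and -0.30 without HF 4, with 7 of 10 below 0 in each. Groups that did not overlap, with HF lower than Ct, were found for Mb, Myl2 and Myl3, 3 of 10 members, against 4.45% of tested genes. No member had ECH wholly below Ct (3.64% of tested genes) or HF wholly below ECH (3.56%).

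**Figure D2:**
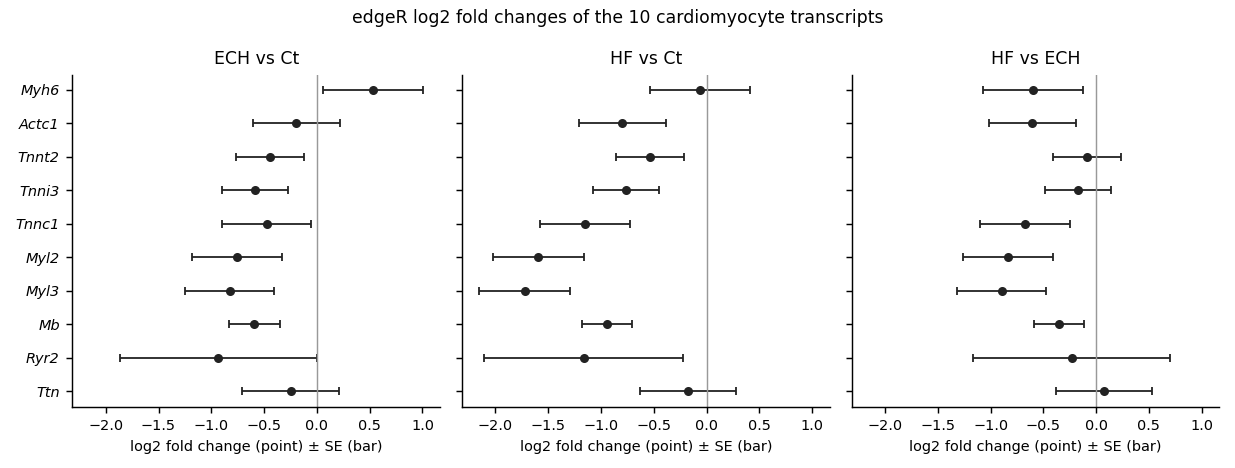
Log2 fold change of each of the 10 transcripts (points) with its SE (bars) from edgeR's quasi-likelihood fit over 12 libraries, for ECH against Ct, HF against Ct and HF against ECH. In HF against Ct all points lie left of 0, from -0.063 (Myh6) to -1.72 (Myl3); in ECH against Ct Myh6 lies to the right at 0.53.

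The ECH group was itself divided. All 10 members were higher in both ECH 3 and ECH 4 than in both ECH 1 and ECH 2, a pattern held by 27.8% of tested genes (4060 of 14608). ECH 1 and 2 lie in the library set of the Ct mice, and ECH 3 and 4, which also share a title code, in that of the HF mice, so that set and code cannot be told apart here. Marker sums of macrophages, endothelial cells, mural cells, B cells, and T and NK cells were divided along the same line. Those of fibroblasts (250 and 171 CPM against 94.8 and 490 CPM), neutrophils and erythroid cells were not. In ECH 1 and 2 against ECH 3 and 4, B cell markers summed to 79.8 and 54.8 CPM against 34.3 and 46.2 CPM. T and NK cell markers summed to 27.4 and 10.6 CPM against 3.03 and 7.73 CPM, and mural markers to 8.61 and 6.54 CPM against 9.02 and 20.5 CPM. The summed level of the 15 macrophage markers was 48929 and 44714 CPM in ECH 1 and 2 against 36971 and 35963 CPM in ECH 3 and 4, and that of the 10 endothelial markers was 44.2 and 53.6 CPM against 114 and 80.1 CPM. The part of these cell classes in the division of the members was not tested. Within the first set, the median log2 fold change of the members in ECH 1 and 2 against Ct was -0.92, with 10 of 10 below 0, and 2 members reached an unadjusted p under 0.05, against 5.03% of genes. Tnnc1, Myl2, Myl3 and Mb, 4 of 10 members, were lower in ECH 1 and 2 than in every Ct library, against 8.65% of tested genes. Within the second set, the median in HF against ECH 3 and 4 was -0.83, with 10 of 10 below 0, and 6 members reached an unadjusted p under 0.05, against 21.2% of genes. For 7 of 10 members (Myh6, Actc1, Tnni3, Tnnc1, Myl2, Myl3 and Mb) all 4 HF libraries were lower than ECH 3 and ECH 4, against 18% of tested genes. Across the sets no member had this order, with 0 of 10 lower in ECH 3 and 4 than in every Ct library (11.3% of tested genes) and 0 of 10 with every HF library below ECH 1 and 2 (7.13%). No member was called by the quasi-likelihood test within either set, where 0.00674% and 2.49% of genes were called.

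Myh6 shows how the division bears on a single gene. It was at 5.21 and 9.42 CPM in ECH 1 and 2 and at 18.6 and 20.96 CPM in ECH 3 and 4, so that its log2 fold change in ECH against Ct, 0.53 over all libraries, was -0.36 within the first set. Its direction in ECH against Ct therefore differed between the fits. With the set as a covariate the median change of the members was -0.92 in ECH against Ct, -1.70 in HF against Ct and -0.83 in HF against ECH, and 0 members were called, against 0.151%, 1.42% and 1.86% of genes. In that fit 5, 6 and 6 members had an unadjusted p under 0.05, against 7.89%, 15.1% and 16.2% of genes. Only ECH has libraries in both sets, so the set term rests on ECH 1 and 2 against ECH 3 and 4. The change that this fit gives for HF against Ct is built from the changes within the sets. It is therefore no separate result.

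Levels were compared between genes after division by exon length (CPM per kb of exon in the basic set of GENCODE M21). The order, from the mean of 12 libraries, was Tnni3 (20.8 CPM per kb), Actc1 (19.98), Tnnt2 (18.2), Mb (16.0), Myl2 (13.4), Tnnc1 (12.02), Myl3 (10.2), Myh6 (1.74), Ttn (0.0871) and Ryr2 (0.0533). The ranges over libraries of neighbouring genes among the first 7 overlapped, as did those of Ttn and Ryr2. The first 7, with exon lengths of 0.721 to 1.473 kb, stood between percentiles 64.4 and 78.4 of 14121 tested genes with a known length. Myh6 (6.113 kb) stood at percentile 32.8, Ttn (113.588 kb) at 6.39 and Ryr2 (18.23 kb) at 3.68. Over all tested genes the median level per kb also fell with length, from 8.96 CPM per kb for 3730 genes under 2 kb to 3.12 for 2849 genes of 5 to 10 kb and 1.73 for 391 genes of 10 kb or more. Among the 541 tested genes with 0.5 to 2 times its exon length, Ryr2 stood at percentile 15.2, and Myh6 stood at percentile 34.7 of 7107 such genes. The 7 short members stood between percentile 50.3 (Myl3) and 67.8 (Actc1) of genes of like length, lower than among all genes. For Ttn 3 genes had such a length. The comprehensive set of GENCODE M21 gives Tnnt2 7.752 kb of exon in place of 1.263 kb, and Tnni3 2.063 kb in place of 0.912 kb. With these longer lengths, tried after the values were seen, Tnnt2 stood at 2.96 CPM per kb and rank 7 in place of 3, Tnni3 at 9.20 and rank 3, and Actc1 came first at 18.2, so the order among the first 7 depends on the transcripts counted. Myh6, Ttn and Ryr2 were the last 3 with both sets.

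The macrophage genes examined spanned a wide range on the same scale. Lyz2, which encodes lysozyme, averaged 12492 CPM per kb, Cd68 895, Csf1r, the receptor for the growth factor that maintains Mφ, 844, and Fcgr1, a sorting marker, 52.0. The lowest of the 15 macrophage markers were Cx3cr1 (34.4) and Mertk (42.7). Tnni3, the highest cardiomyocyte transcript, was below all 15 on average, although its highest library, Ct 2 at 42.2 CPM per kb, reached into the range of Fcgr1.

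**Figure D3:**
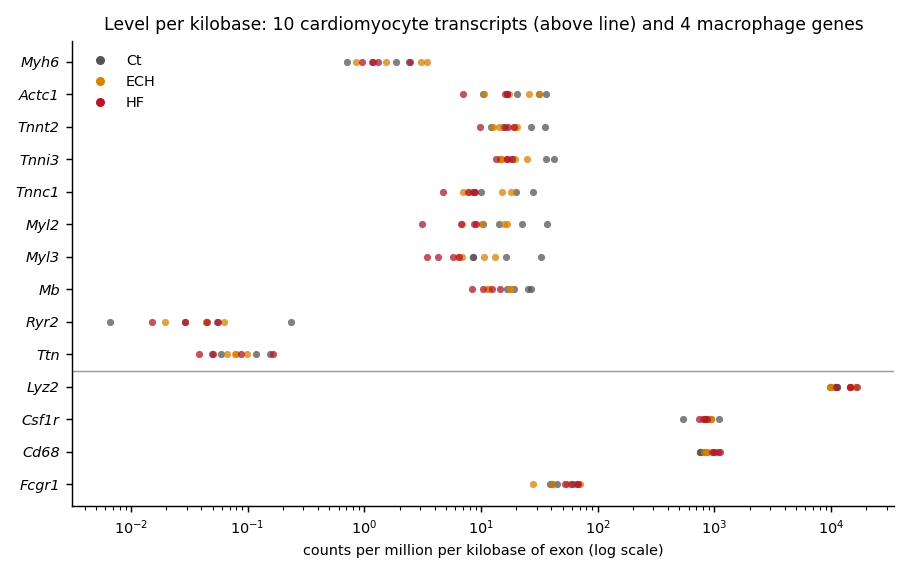
CPM per kb of exon (horizontal log axis) of the 10 cardiomyocyte transcripts, above the line, and of 4 macrophage genes, below it, with 1 point per library (Ct grey, ECH orange, HF red). The 7 short transcripts average 10.2 to 20.8, Myh6 averages 1.74, and Ttn and Ryr2 stay under 0.3, while Lyz2 averages 12492.

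The make-up of the signal differed between libraries. Each member was expressed as its share of the summed CPM per kb of the 10, so that a common factor of a library drops out. Myh6 made up 0.855% to 1.09% of the sum over the 4 Ct mice, 1.01% to 2.42% for ECH and 1.40% to 2.80% for HF, and every HF library exceeded every Ct library. Tnnt2 made up 14.3% to 14.9% for Ct, 14.3% to 17.5% for ECH and 17.98% to 21.6% for HF, where every HF library exceeded all 8 others. Myl2 made up 12.5% to 15.2% for Ct, 9.56% to 12.7% for ECH and 3.74% to 12.3% for HF, below every Ct library. Myl3 made up 7.97% to 13.5% for Ct, 8.06% to 9.36% for ECH and 4.92% to 7.32% for HF, where every HF library was lower than all 8 others. These were the 4 of 10 members whose HF and Ct shares did not overlap. The shares of Actc1, Tnni3, Tnnc1, Mb, Ryr2 and Ttn overlapped, as did those of all 10 members between ECH and Ct. The shares are defined within the 10 members only, so no value over all genes can stand beside this count. With the exon lengths of the comprehensive set, Myh6 and Tnnt2 were still apart, while the HF and Ct shares of Myl2 and Myl3 overlapped, which left 2 of 10. The ratio of Myh6 to Myl2, per kb, was 0.0658 to 0.0829 for Ct, 0.0831 to 0.226 for ECH and 0.142 to 0.375 for HF. Shares sum to 100% within a library, so that one cannot fall without another rising, and these genes were singled out after their values were seen, with no test.

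**Figure D4:**
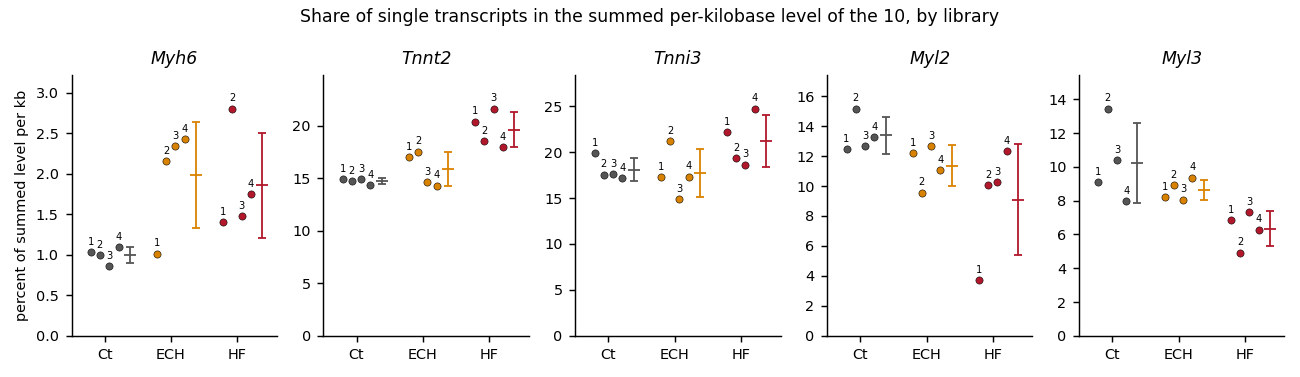
Share of Myh6, Tnnt2, Tnni3, Myl2 and Myl3 in the summed CPM per kb of the 10 transcripts (percent, axes from 0), by library with the replicate number above each point and the mean ± SD beside each group. The Ct shares of Tnnt2 lie between 14.3% and 14.9%, and those of HF between 17.98% and 21.6%; the HF shares of Myl3 lie below 7.4%.

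Most members varied together from library to library. The Pearson correlation of log2(CPM + 0.1) between pairs of members over the 12 libraries was 0.19 to 0.94 over 45 pairs, with a median of 0.65, and 30 pairs exceeded 0.5. Tnnc1 followed the mean of the other 9 members most closely (r = 0.96). Ryr2 was least like it, with r = 0.47 and 0.019 without Ct 2, and Ttn (r = 0.52, or 0.31 without Ct 2) and Myh6 (r = 0.62, or 0.64 without Ct 2) came next. By Spearman's rho, Ttn was least like the mean of the others, at 0.39, followed by Ryr2 at 0.52. All points share the same libraries and scaling factors, so these are descriptions of 12 libraries.

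Among the genes outside the set, the 10 whose log2(CPM + 0.1) was most like the mean of the members over the 12 libraries were 1600020E01Rik, Zfos1, Rogdi, Lrrn4cl, Syf2, Golgb1, Syt12, Gm15441, 2410006H16Rik and Fnip1, with r from 0.93 to 0.95. None of the 10 belongs to the 91 further cardiomyocyte genes listed. Ranked by Spearman's rho, 1 of these 10 was among the closest 10, and with 1 CPM added in place of 0.1, 8 were. Of the cardiomyocyte genes, Csrp3, a Z-disc protein, was the closest (r = 0.93), followed by Cox8b, a muscle subunit of cytochrome oxidase (r = 0.89), and Tpm1, alpha tropomyosin (r = 0.85). Of the 19 muscle metabolism genes tested, 12 had r above 0.5, which is 63.2%, against 8 of 24 further sarcomere genes (33.3%) and 15.9% of all 14598 other genes tested. The other cardiomyocyte lists were near or below that share, with 1 of 18 calcium-handling genes, 0 of 10 stress genes, 1 of 9 transcription factors and 1 of 6 atrial genes, and the lowest r was that of Gja1, a gap junction gene, at -0.89. Among other cell classes, 2 of 6 mural, 2 of 7 T and NK cell, 2 of 8 neutrophil, 1 of 5 B cell and 1 of 10 endothelial markers had r above 0.5, and 0 of 15 macrophage and 0 of 10 fibroblast markers.

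The further cardiomyocyte genes numbered 91, of which 79 were tested. The main test called 0 of the 79 in each comparison, and at an unadjusted p under 0.05 4, 7 and 5 were lower in ECH against Ct, HF against Ct and HF against ECH. These are 5.06%, 8.86% and 6.33% of the list, against 5.89%, 8.72% and 5.17% of all genes. In the same order 2, 5 and 3 were higher, which is 2.53%, 6.33% and 3.80%, against 6.03%, 7.35% and 2.81% of all genes. DESeq2 and edgeR's likelihood ratio test each called 2 of them (2.53%) in HF against Ct and in HF against ECH, where DESeq2 called 2.3% and 0.322% of all genes and the likelihood ratio test 1.87% and 0.329%: Kcnq1, a potassium channel gene, as higher and Art1, which was at 0 in all HF libraries, as lower. Their median log2 fold change was -0.076, -0.17 and -0.27. By role, the median in HF against Ct was -0.43 for 24 further sarcomere genes, -0.075 for 18 calcium-handling genes, -0.68 for 19 muscle metabolism genes, 0.19 for 10 genes of the stress response, -0.058 for 9 cardiac transcription factors and -0.17 for 6 atrial genes. For 24 sarcomere genes, 2 were lower and 0 higher at an unadjusted p under 0.05, Tpm1 and Mybpc3, which is 8.33% against 8.72% of all genes. Of 19 muscle metabolism genes, 5 were lower (26.3% against 8.72%): Ckm, Fabp3, Cox8b, Slc2a4 and Art1, which serve energy transfer, fatty acid binding, respiration, glucose uptake and ADP-ribosylation. A further 3, the more widely expressed Hadha, Atp5a1 and Uqcrc1, were higher (15.8% against 7.35%). In the calcium-handling list 0 were lower and 2 higher, Kcnq1 and Gja1, and in the stress, transcription factor and atrial lists 0 were at that level in HF against Ct. Many genes of these lists are known to be expressed outside muscle too.

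Tpm1, Myom1 and Tcap were the highest sarcomere genes, with means of 69.3, 17.7 and 7.23 CPM. Tpm1 averaged 81.9 ± 24.99 CPM for Ct, 66.5 ± 14.8 CPM for ECH and 59.6 ± 5.08 CPM for HF (SD, n = 4 each). Atp2a2, the SERCA pump, Camk2d and S100a1 led the calcium-handling genes at 167, 91.5 and 87.4 CPM. Atp5a1 and Uqcrc1, of ATP synthase and the respiratory chain, led the metabolism genes at 463 and 257 CPM. Among transcription factors Mef2a, Mef2c and Mef2d, at 361, 264 and 75.5 CPM, were the highest, whereas Hand1 was at 0 in all 12 libraries. Rcan1, an inhibitor of calcineurin, Ctgf and Tnfrsf12a led the stress genes, and Dkk3, Stard10 and Myl7 led the atrial genes.

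Genes that stressed cardiomyocytes are known to induce differed widely in level. Summed over the 10 listed, they stood at 68.2 to 74.7 CPM (Ct), 92.7 to 136 CPM (ECH) and 72.8 to 93.7 CPM (HF), mostly from Rcan1. Every ECH sum exceeded every Ct sum, while the main test called 0 of them. At an unadjusted p under 0.05, 1 of 10 was higher in ECH against Ct, against 6.03% of all genes. In HF against ECH 1 of 10 was lower at that level, against 5.17% of all genes. DESeq2 and the likelihood ratio test called 0 of the 10 as well. The natriuretic peptides were close to 0. Nppa, which encodes atrial natriuretic peptide, was at 0 to 1.53 CPM, and Nppb, brain natriuretic peptide, at 0 to 0.871 CPM, with libraries at 0 in each. Bmp10, an atrial growth factor, was at 0 in every library, and a count of 0 allows up to 3 counts, which is 0.0259 to 0.0349 CPM. Of 12 skeletal muscle genes 4 were tested, and the main test called 0. The likelihood ratio test called 1 of the 4, Actn3, lower in HF than in Ct, against 1.87% of all genes. Actn3, a fast-fibre actinin, was at 0 in all HF libraries. By the main test 1 of the 4 was lower in HF than in Ct at an unadjusted p under 0.05, against 8.72% of all genes. Myh1, Myh4, Myog and Myod1 were at 0 in all 12 libraries. Tnni2, Tnnt3 and Mylpf were the highest of that list, at 5.49, 1.73 and 0.992 CPM.

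RNA of other cell types was measured beside the cardiomyocyte transcripts. Fibroblast markers (10 of 10 tested, led by Dcn, Col3a1 and Lum) summed to 31.8 to 207 CPM over the Ct mice, 94.8 to 490 CPM over those of ECH and 88.1 to 259 CPM over those of HF, and were lowest in Ct 1 and Ct 2, where cardiomyocyte transcripts were highest. Endothelial markers (10 of 10, led by Fabp4, Vwf and Pecam1) summed to 40.7 to 77.7 CPM (Ct), 44.2 to 114 CPM (ECH) and 34.5 to 55.8 CPM (HF). Mural cell markers (6 of 10 tested, led by Rgs5, Tagln and Pdgfrb) stayed at 4.59 to 20.5 CPM. Of 8 erythroid genes 1 was tested, and 5, the hemoglobin genes among them, were listed at 0 in all 12 libraries, and the list summed to at most 0.876 CPM in a library. The main test, DESeq2 and the likelihood ratio test called 0 genes of these 4 lists. The model with a term for library set called Fabp4, a fatty acid carrier on the endothelial list, lower in HF than in Ct and ECH. Which cells its RNA came from was not tested. At an unadjusted p under 0.05, the main test had 1 fibroblast marker higher in ECH than in Ct and 1 endothelial marker higher and 1 lower in HF than in Ct, and 1 endothelial marker lower in HF than in ECH. Each is 1 of 10, and 6.03% of all genes were higher in ECH than in Ct, 7.35% higher and 8.72% lower in HF than in Ct, and 5.17% lower in HF than in ECH.

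Markers of other white cells were measured as well. Those of B cells, led by Cd79a and Cd79b, summed to 96.6 to 446 CPM (Ct), 34.3 to 79.8 CPM (ECH) and 50.1 to 74.6 CPM (HF), with no overlap between Ct and the others, and the highest sum was in Ct 2. DESeq2 and the likelihood ratio test called Cd79a, Cd79b and Ms4a1 lower in both ECH and HF than in Ct, and 4 of 5 of the list were lower at an unadjusted p under 0.05 in each of these comparisons by the main test, against 5.89% and 8.72% of all genes. The model with a term for library set, and the fits within a set, called 0 of the 5. Neutrophil markers (8 of 8 tested, led by S100a9, S100a8 and Csf3r) summed to 342 to 1660 CPM (Ct), 184 to 640 CPM (ECH) and 119 to 1231 CPM (HF), again with the highest sum in Ct 2. The main test called 0 of the 8, with 1, 3 and 2 lower at an unadjusted p under 0.05 in ECH against Ct, HF against Ct and HF against ECH, which is 12.5%, 37.5% and 25% of the list, against 5.89%, 8.72% and 5.17% of all genes. DESeq2 and the likelihood ratio test called Camp and Ngp, genes of neutrophil granules, lower in HF than in Ct and than in ECH, and Camp was at 0 in all HF libraries. The model with a term for library set called 0 of the 8 in ECH and in HF against Ct and 1, Ngp, in HF against ECH. T and NK cell markers (7 tested, led by Nkg7, Cd3g and Cd3d) summed to 12.9 to 61.9 CPM (Ct), 3.03 to 27.4 CPM (ECH) and 8.16 to 18.2 CPM (HF). The main test called 0 of the 7. At an unadjusted p under 0.05, 3 (42.9%) were lower in ECH against Ct, against 5.89% of all genes. In HF against Ct 1 (14.3%) was lower, against 8.72% of all genes, and in HF against ECH 0, against 5.17%. DESeq2 called Cd3e, a chain of the T cell receptor complex, lower in ECH than in Ct, and the model with a term for library set called Gzma, a granzyme, higher in HF than in Ct and ECH. The 15 macrophage markers, led by Lyz2, C1qb and C1qc, gave 0 calls by the main test in each comparison, with 2 and 3 higher at an unadjusted p under 0.05 in ECH and in HF against Ct (6.03% and 7.35% of all genes) and 1 higher and 1 lower in HF against ECH. DESeq2 and the likelihood ratio test called Mertk, a receptor for dying cells, higher in ECH than in Ct and lower in HF than in ECH. The model with a term for library set called 4 in HF against Ct (Adgre1, Aif1, Cx3cr1 and Lyz2, all higher). In HF against ECH it called 3, with Aif1 and Cx3cr1 higher and Mertk lower. These are 26.7% and 20% of the list, against 1.42% and 1.86% of all genes. Ct 2, the library with most cardiomyocyte RNA, thus also held the most B cell, neutrophil, and T and NK cell RNA. The neutrophil sum was next highest in HF 4 (1231 CPM) and Ct 3 (1213 CPM). There the cardiomyocyte transcripts summed to 73.8 and 107 CPM, among the lowest. The part of these cells in the cardiomyocyte signal was not tested.

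**Figure D5:**
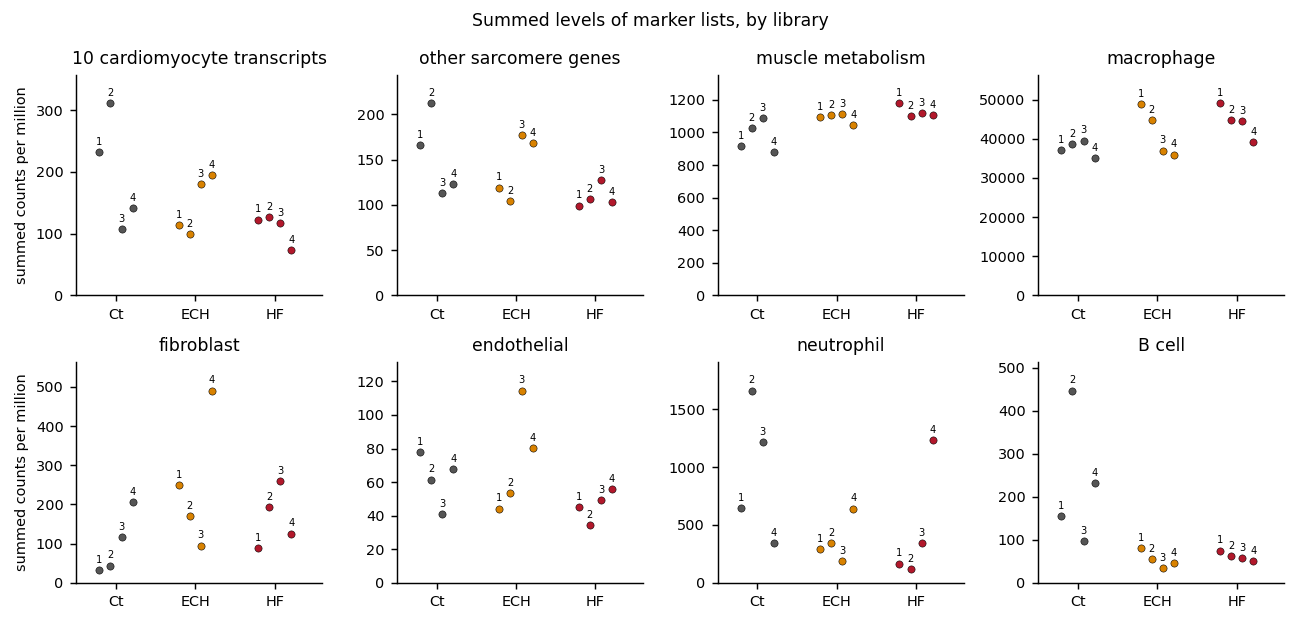
Summed CPM (axes from 0) of the 10 cardiomyocyte transcripts, further sarcomere genes, muscle metabolism genes and markers of 5 other cell classes in the 12 libraries, with the replicate number above each point. Ct 2 is highest for the cardiomyocyte transcripts (311), further sarcomere genes, neutrophil (1660) and B cell (446) markers, while ECH 4 is highest for fibroblast markers (490).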

How the data were processed

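RNA of sorted cardiac Mφ was sequenced from 12 mice in 3 groups of 4, grouped by the labels. Per the labels and their methods, the authors prepared SMART-Seq v4 libraries and read them paired-end on a NextSeq 500, and they used Trimmomatic to trim, TopHat2 to align to mm10 and featureCounts to count. The files deposited by the authors hold raw counts per gene symbol. Versions, annotation and strand setting are not stated there. PCR amplification without molecular identifiers means that limits from counts cover counting error only. Replicates are separate mice.

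The analysis used edgeR 4.0.16 under R 4.3.3 (filterByExpr, TMM factors, quasi-likelihood test on 12 libraries in 3 groups, Benjamini-Hochberg adjustment over 14608 genes), with limma 3.58.1 (voom) and DESeq2 1.42.0 as alternatives. A gene was called at an adjusted p under 0.05 and a change of at least 2-fold. Each CPM is TMM-scaled. Exon lengths and overlaps came from the basic set of GENCODE M21, and 75-base windows from all its transcripts (GRCm38, the build of mm10), and promoters from RefSeq. Python 3.11.15 computed the tables. The fit was tested on simulated data.

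The members and gene lists were chosen with earlier results of these data known. Named were all 10 members, of each further list the called genes and otherwise the 3 with the highest mean CPM, the 10 genes most like the members and the member least like the rest. Other genes, among them Nppa, Nppb, Myh7, Csrp3, Cox8b, Mybpc3, Gja1, those that another fit called and those at 0, were named after their values were seen. Results of a few listed genes are not reported here.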

Additional observations from a re-analysis of the deposited data

Results flagged for a closer look

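Of 33 checks for a library standing apart from the other 3 of its group (each member and their sum, in 3 groups), 1 passed Dixon's 95% limit for 4 samples. Actc1, cardiac alpha actin, was at 10.2 CPM in HF 4, against 23.6 to 24.6 CPM in the other HF libraries, and the gap made up 0.930 of the range of the group. Chance gives about 1 such flag in 20 groups. HF 4 was also the lowest of the 12 libraries for 6 of the 10 members.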

How the results depend on the processing

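The main test called 52, 55 and 0 genes in ECH against Ct, HF against Ct and HF against ECH. In the same order DESeq2 called 248, 336 and 47, edgeR's likelihood ratio test 218, 273 and 48, and a fit with a covariate for the library set 22, 208 and 272. Limma-voom called 84 and 130 in the first and second comparisons, a fit within one library set called 1 gene in ECH against Ct and 370 in HF against ECH, and a fit of only the groups compared called 8 in ECH against Ct. Leaving out 1 library gave 11 to 95 in ECH against Ct and 15 to 103 in HF against Ct, lowest without Ct 1 and highest without Ct 3. DESeq2 and the likelihood ratio test called 2 members in HF against Ct. They also called 2 further cardiomyocyte genes, Kcnq1 and Art1, in HF against Ct and in HF against ECH. In HF against ECH the fit within one set called 2 as well, but these were Art1 and Gja1. The cause of these differences was not tested. Every other setting called 0 members in each comparison.

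Directions turned for members with small or irregular changes. In ECH against Ct, Myh6 was at -0.36 on the log2 scale both within one library set and with the set covariate, and Ryr2 was at 0.93 with limma-voom. In HF against Ct, limma-voom gave 0.083 for Myh6 and 0.81 for Ryr2. In HF against ECH, Ttn was at -0.068 with that covariate, at -0.066 within one set and at -0.45 with limma-voom. Leaving out 1 library gave ranges that cross 0. In ECH against Ct they were -0.45 to 0.057 for Actc1, -1.32 to 0.51 for Ryr2 and -0.47 to 0.095 for Ttn, each highest without Ct 2. In HF against Ct they were -0.42 to 0.24 for Myh6, -1.55 to 0.28 for Ryr2 and -0.71 to 0.17 for Ttn, again highest without Ct 2. In HF against ECH they were -0.20 to 0.078 for Tnnt2, -0.52 to 0.022 for Ryr2 and -0.46 to 0.33 for Ttn. Without Ct 2 and HF 1 together, chosen after seeing the data, ECH against Ct was at 0.045 for Actc1, 0.50 for Ryr2 and 0.083 for Ttn, HF against Ct at 0.32 for Myh6 and 0.36 for Ryr2, and HF against ECH at -0.46 for Ttn. Tnni3, Tnnc1, Myl2, Myl3 and Mb kept their direction in all 3 comparisons under every setting run.

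With the replicate number as a block, 22 genes were called in ECH against Ct and 18 in HF against Ct, 0 members were called, and Ttn turned to -0.19 in HF against ECH. Libraries of the same number deviated together with correlations of -0.078 to 0.064, so they share only a number.

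The spread between mice was wide, with a biological coefficient of variation of 60.8% from edgeR's common dispersion over all tested genes. Apart from Ryr2, with 12 to 369 counts, each member had at least 382 counts in every library. With the exon lengths of the comprehensive annotation, chosen after seeing the data, HF and Ct shares did not overlap for 2 members in place of 4, and without division by length for 4.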

Other observations

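Among the further cardiomyocyte genes, 3 that other cells also express are given here, chosen after their values were seen. Rcan1, an inhibitor of the phosphatase calcineurin, averaged 78.8 ± 20.8 CPM in the ECH mice, against 43.1 ± 5.14 for Ct and 49.1 ± 11.1 for HF (SD, n = 4 each), and 3 of 4 ECH libraries exceeded all others. Mef2c, a transcription factor of muscle and immune cells, averaged 189 ± 41.9 CPM in the ECH mice, against 332 ± 43.5 for Ct and 272 ± 27.2 for HF, and every ECH library was lower than all others. In ECH against Ct the adjusted p of edgeR's quasi-likelihood test was 0.0950 for Rcan1 and 0.0530 for Mef2c. Gja1, the gap junction protein connexin 43, averaged 12.4 ± 2.36 CPM in the HF mice, against 2.29 ± 1.86 for Ct and 4.22 ± 2.79 for ECH, and every HF library exceeded all others, with an adjusted p of 0.256 for HF against Ct. None of these differences passed the main test. Within the library set of the HF mice, Gja1 was called in HF against ECH 3 and 4, at a log2 fold change of 2.77 (quasi-likelihood adjusted p = 0.00696).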
